A study of Arabidopsis thaliana with 6 samples.

Results

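UGT76B1 (AT3G11340), GRX480 (AT1G28480) and SAG101 (AT5G14930) are 3 genes of Arabidopsis thaliana that are linked to salicylic acid by their known roles. They were followed in mature rosette leaves of the mlo2 mlo6 mlo12 triple mutant and of wild type (WT). They are 3 of the 13356 genes that the platform annotation pairs with a probe set of their own. The genes were chosen by name, with their mutant minus WT differences and their differences between ages on these same arrays already known. Their values are therefore given as a description, with no test. The plants had grown for 5, 6 or 7 weeks from sowing, in normal conditions, and the labels name no pathogen. Total RNA of each genotype at each age went onto 1 Affymetrix array, giving 3 arrays of the triple mutant and 3 of WT. The triple mutant is mutated in MLO2, MLO6 and MLO12, which the annotation pairs with no probe set, so they gave no check of the genotype labels. The number of plants per array and the alleles of the mutant are not given in the sources used here.

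Salicylic acid is a phenolic hormone that leaves make in response to biotrophic pathogens, and it acts through the NPR1 family of receptors and TGA transcription factors. EDS1, with its partners PAD4 and SAG101, relays signals from immune receptors, and with PAD4 it raises salicylic acid synthesis. Plants hold the free hormone down by converting it to glucosides and other derivatives. MLO proteins sit in membranes, plants that lack them resist powdery mildew, and mlo2 mutant leaves are known to senesce early in a way that depends on salicylic acid signalling. UGT76B1 is a glucosyltransferase that acts on salicylic acid, isoleucic acid and N-hydroxypipecolic acid. GRX480, also called ROXY19, is a glutaredoxin of the CC type that is induced by salicylic acid and binds TGA factors. SAG101 is a lipase-like protein first described as senescence-associated, which forms a complex with EDS1. Salicylic acid itself was not measured on these arrays.

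The values are log2 expression values made by the authors with RMA, a method that corrects background, makes the distributions of the arrays alike and gives 1 value per probe set. Array medians were 3.87, 3.82 and 3.81 in the mutant and 3.87, 3.8 and 3.8 in WT at 5, 6 and 7 weeks. The 6-week WT array had the lowest mean correlation with the other arrays, at 0.970, against 0.975 to 0.982 for the other 5. The leaf markers RCA, SBPASE and PRK, genes of carbon fixation, read 9.69 to 12.7 on all arrays. PYK10, a root marker, read 2.31 to 2.75, and the guard cell regulator FMA read 3.52 to 4.06. A probe set of their own was found for 3 of 5 listed leaf markers and 1 of 3 root markers. It was found for 1 of 3 guard cell and phloem markers and 0 of 5 flower markers. In RNA of whole leaves, fewer cells of a type cannot be told apart from less RNA per cell.

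UGT76B1 was the gene of the 3 that set the genotypes apart. It read 6.19, 5.74 and 4.78 in the triple mutant at 5, 6 and 7 weeks, and 3.64, 3.98 and 3.33 in WT (log2). The mutant was above WT at each age, and the lowest mutant array lay 0.80 above the highest WT array. Mutant minus WT came to 2.55, 1.76 and 1.46 at the successive ages, or 5.84-fold, 3.38-fold and 2.75-fold. Over the ages the means were 5.57 ± 0.72 in the mutant and 3.65 ± 0.33 in WT (SD, 3 arrays each), a difference of 1.92 ± 0.24 (SE, moderated across probe sets by limma) or 3.79-fold.

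The WT values of UGT76B1 lay near the array medians, in the dim part of the range, where RMA compresses values. Among all 22746 probe sets the UGT76B1 difference ranked 6th from the top over all ages. By single age it ranked 7th at 5 weeks, 57th at 6 weeks and 116th at 7 weeks. All 3 mutant arrays were above all 3 WT arrays for 778 probe sets, or 3.42% of those measured, and UGT76B1 was the one gene of the 3 among them. A separation of at least 0.80 was found for 7 probe sets, UGT76B1 included. UGT76B1 had been chosen for this difference, so these ranks are no evidence about it.

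The level of UGT76B1 was also lower at 7 weeks than at 5 weeks in both genotypes. In the mutant it was 0.44 lower at 6 than at 5 weeks and another 0.96 lower at 7 weeks. In WT it was 0.34 higher at 6 weeks than at 5 weeks and 0.66 lower at 7 than at 6 weeks. The 7 minus 5 week difference was -1.40 in the mutant and -0.31 in WT, with a mean of -0.86 ± 0.29 (SE) that was -0.39 without the 5-week mutant array and -1.33 without the 5-week WT array. The mutant minus WT difference of UGT76B1 had an estimated change of -1.09 ± 0.53 (SE) from 5 to 7 weeks, and of -0.089 or -2.09 when WT at 5 weeks or at 7 weeks was left out. Genotype accounted for 81.6% of the variation of UGT76B1 over the 6 arrays, age for 13.7% and what neither explained for 4.67%.

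**Figure D1:**
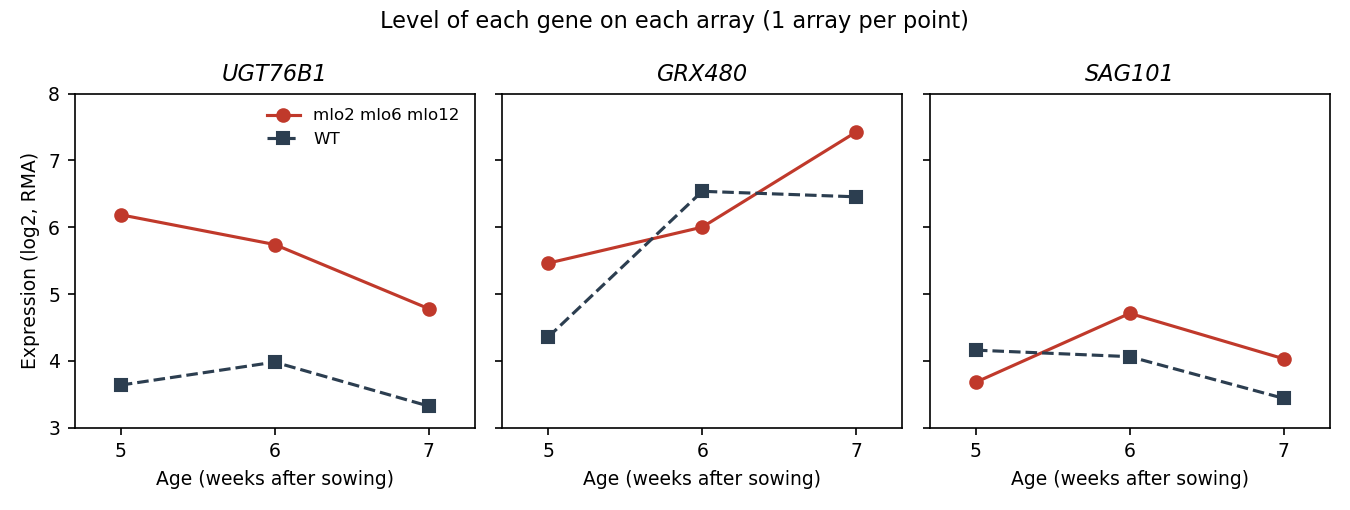
Log2 expression (vertical axis) of UGT76B1, GRX480 and SAG101 against leaf age in weeks, with the mlo2 mlo6 mlo12 mutant as red circles and WT as dark squares; each point is 1 array, so there are no error bars. The UGT76B1 lines stay apart, while those of GRX480 and SAG101 cross.

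GRX480 followed the age of the leaves more than their genotype. It read 5.46, 6.00 and 7.42 in the mutant at 5, 6 and 7 weeks, and 4.36, 6.54 and 6.45 in WT (log2). Both 7-week arrays were above both 5-week arrays, and the genotypes overlapped. In the mutant most of the difference lay between 6 and 7 weeks, with steps of 0.54 and 1.42, whereas in WT it lay between 5 and 6 weeks, with steps of 2.18 and -0.08. The 7 minus 5 week difference of GRX480 was 1.96 in the mutant and 2.09 in WT, which is 3.89-fold and 4.27-fold.

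The mean age difference of GRX480 was 2.03 ± 0.44 (SE), or 4.08-fold, and ranked 46th from the top of all probe sets. GRX480 had been chosen with this difference known, so the rank is no evidence about it. Of all probe sets 24.1% had both 7-week arrays above both 5-week arrays, so this order is common on these arrays. Age accounted for 77.7% of the variation of GRX480, genotype for 7.16% and the rest for 15.1%. The labels give no harvest day or batch, and whatever the arrays of an age share beyond leaf age cannot be told apart from it.

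Control probe sets also differed between the ages. The 27 probe sets for poly-A RNA added during sample preparation averaged 4.0, 4.22 and 4.55 in the mutant, and 3.83, 4.85 and 4.88 in WT. The 25S rRNA control read 6.59, 5.39 and 5.70 in the mutant, and 7.51, 4.08 and 3.87 in WT. In each genotype the spike-in average was lowest at 5 weeks, as was GRX480, and the rRNA control was highest at 5 weeks. The leaf markers were lower at 7 weeks than at 5, by 0.45 to 1.05, in 3 of 3 genes, with adjusted p-values of 0.137 to 0.242 in limma. The part of any of these in the GRX480 difference was not tested.

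Between the genotypes GRX480 had no single direction. It was 1.1 higher in the mutant at 5 weeks and 0.97 higher at 7 weeks, but 0.54 lower at 6 weeks. The mutant averaged 6.30 ± 1.01 and WT 5.78 ± 1.23 (SD, 3 arrays each), a difference of 0.51 ± 0.36 (SE). Without either 6-week array the estimate was 1.04, and without either 5-week array it was 0.22. The estimated change of the mutant minus WT difference from 5 to 7 weeks was -0.14 ± 1.0 (SE). This estimate turned positive when an array of 5 weeks was left out, at 0.75 without the mutant and 2.12 without WT.

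SAG101 had the narrowest range of the 3 genes. It read 3.68, 4.71 and 4.03 in the mutant at 5, 6 and 7 weeks, and 4.16, 4.06 and 3.44 in WT (log2). The genotypes overlapped, with the highest value in the mutant at 6 weeks and the lowest in WT at 7 weeks. Mutant leaves were 0.48 lower at 5 weeks, 0.65 higher at 6 weeks and 0.59 higher at 7 weeks. The means were 4.14 ± 0.52 in the mutant and 3.89 ± 0.39 in WT (SD, 3 arrays each), and the difference was 0.25 ± 0.26 (SE). It was 0.62 without either 5-week array and 0.057 without either 6-week array.

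With age, SAG101 had differences of opposite sign in the 2 genotypes, a contrast that was not tested. The 7 minus 5 week value came to 0.35 in the mutant and -0.72 in WT, with a mean of -0.19 ± 0.32 (SE). The estimated change of its mutant minus WT difference from 5 to 7 weeks was 1.07 ± 0.76 (SE). Leaving out WT at 5 weeks turned the mean age difference to 0.36, and leaving out WT at 7 weeks turned it to 0.069. Leaving out the mutant at 5 weeks turned the estimated change to -0.64. Genotype accounted for 10.1% of the variation of SAG101, age for 47.4% and the rest, which neither explained, for 42.5%. Age and the rest take larger shares than genotype even where nothing differs, so these shares alone show no effect of age.

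Since no condition was repeated, the spread that was left after genotype and age were fitted was the only yardstick for neighbouring levels. It was 0.40 for UGT76B1, 0.64 for GRX480 and 0.45 for SAG101 (residual SD, log2). It comes from these same arrays, with 2 residual degrees of freedom, and is the spread of 1 array. A gap is a difference of 2 arrays and spreads more widely, so a gap above the residual SD does not show that levels differ. In order of level, the 3 mutant arrays of UGT76B1 each differed from the next array by more than the residual SD. The 3 WT arrays followed with gaps of 0.34 and 0.31, below it. For GRX480 the 7-week mutant array stood 0.89 above the next, the 6-week WT array. It was followed by the 7-week WT, 6-week mutant and 5-week mutant arrays with gaps of 0.08 to 0.54, below the spread, and the 5-week WT array lay 1.1 under the last of these. For SAG101 the 6-week mutant array stood 0.55 above the next, and the other 5 arrays followed each other with gaps of 0.03 to 0.35, below the spread.

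At single ages, with 1 array per side and no test, a log2 difference of at least 1 was counted. Such a difference between mutant and WT was found for 1.31% of all probe sets at 5 weeks, 4.93% at 6 weeks and 1.85% at 7 weeks. UGT76B1 and GRX480 reached it at 5 weeks, and UGT76B1 alone of the 3 at 6 and at 7 weeks. Between 7 and 5 weeks it was found for 6.21% of all probe sets in the mutant, where UGT76B1 and GRX480 reached it, and for 5.04% in WT, where GRX480 alone did. In limma's linear models the share of the 22746 probe sets past the adjusted threshold of 0.05 was 0% for genotype, 0% for age and 0% for the genotype-by-age interaction. At an unadjusted 0.05 the counts were 1482, 3691 and 233 for these comparisons, and with limma-trend 1, 258 and 0 passed the adjusted threshold.

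Other genes of the pathway were taken from lists of salicylic acid synthesis, conversion, perception and response, the EDS1 node, the families of the 3 genes and targets of jasmonate and ethylene. A probe set of its own and a name in the RefSeq table were found for 16 other genes on these lists, which are the genes described here. Another 25 entries have a probe set of their own but no such name in that table, and were not analysed here. The lists of synthesis genes, of their regulators, of N-hydroxypipecolic acid synthesis, of NPR and NIMIN genes and of TGA factors had 0 members among the genes described, and SAG101 was the one gene of the EDS1 node. In the N-hydroxypipecolic acid, NPR and NIMIN, and EDS1 lists 1 entry each is among those left out. Of the 16 other genes, 0 passed the adjusted threshold in limma in either direction for genotype (adjusted p from 0.788 to 0.984), for age (0.143 to 0.958) or for the interaction (1 for each). At an unadjusted 0.05 there were 0, 2 and 1 of the 16, beside 1482, 3691 and 233 of all 22746 probe sets.

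For genotype, 6 of the 16 had estimates above 0, with a median of -0.054, beside 43.7% of all probe sets, whose median was -0.025. For age 11 of 16 were above 0, with a median of 0.062, beside 48.6% of all probe sets, whose median was -0.0068. After a shift of each array to a common median, 13 of 16 and 60.7% of all probe sets were above 0 for age.

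Among genes that convert salicylic acid, 4 others had a probe set of their own in the annotation. Their means over the ages were within 0.29 of WT. UGT74F1, which forms salicylic acid glucosides, was at -0.29 ± 0.18 (SE, mutant minus WT), and UGT71C3, a glucosyltransferase of methyl salicylate, at -0.059 ± 0.11. At 6 weeks UGT74F1 was 0.71 lower in the mutant. BSMT1, the methyltransferase that makes methyl salicylate, was at 0.081 ± 0.12, and GH3.5 (WES1), which conjugates auxin and salicylic acid to amino acids, at -0.024 ± 0.18. UGT74F1, UGT71C3 and BSMT1 read between 2.23 and 3.59 on all 6 arrays, in the dim range where differences are compressed. GH3.5 read 3.25, 4.28 and 4.47 in the mutant and 3.69, 3.91 and 4.47 in WT, so that it was 0.44 lower in the mutant at 5 weeks and 0.36 higher at 6 weeks. Its 7 minus 5 week difference was 1.0 ± 0.22 (adjusted p = 0.143 in limma).

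In the glycosyltransferase family of UGT76B1, 7 other members with a name in the RefSeq table were described, and 10 more with a probe set were left out. UGT76B1, chosen with its difference known, had a mutant minus WT estimate of 1.92. The estimates of the 7 others ran from -0.35 to 0.11, with 3 above 0 and a median of -0.089. The lowest was that of UGT76C1, at -0.35 ± 0.19 (SE), and the highest that of UGT76C2, at 0.11 ± 0.12; both proteins are cytokinin N-glucosyltransferases. UGT76C1 was 0.81 lower in the mutant at 5 weeks, and 0.31 lower at 6 weeks. UGT76D1 was at 0.030 ± 0.11, UGT76E1 at -0.12 ± 0.12 and UGT76E2 at -0.23 ± 0.12. UGT76E11 was at -0.089 ± 0.17 and UGT76E12 at 0.040 ± 0.12. UGT76D1, UGT76E1 and UGT76E12 read between 2.06 and 3.19 on all 6 arrays, in the dim range where differences are compressed. At single ages 0 of these 7 genes reached a difference of 1. Few of all probe sets did, 1.31% at 5 weeks, 4.93% at 6 weeks and 1.85% at 7 weeks. With age UGT76C2 was at -0.52 ± 0.14 (7 minus 5 weeks, adjusted p = 0.194 in limma).

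Of the 18 genes on the list of salicylic acid response, the annotation pairs only WRKY53, besides GRX480, with a probe set of its own. The annotation gives 13513 of the 22746 probe sets to 1 gene and 503 to several. A listed gene without a probe set of its own may thus still be on the array. WRKY53 encodes a transcription factor of leaf senescence and defence. It read 5.46, 7.17 and 7.76 in the mutant at 5, 6 and 7 weeks, and 6.04, 6.08 and 5.91 in WT. The mutant was below WT at 5 weeks, by 0.58, and above it by 1.08 and 1.84 at the later ages. Its mean genotype difference was 0.78 ± 0.48 (SE, adjusted p = 0.804 in limma), and its mutant minus WT difference had an estimated change of 2.42 ± 0.53 from 5 to 7 weeks (adjusted p = 1). The mutant minus WT difference was thus largest at 7 weeks for WRKY53, while that of UGT76B1 was largest at 5 weeks.

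The other CC-type glutaredoxins described were ROXY1 and ROXY2, known for roles in petal and anther development. Another 12 on the list have a probe set but no name in the RefSeq table, and were left out. ROXY1 and ROXY2 read dimly in leaves, between 2.67 and 3.58 on all 6 arrays. Their age estimates were 0.31 ± 0.17 and 0.30 ± 0.13 (SE, 7 minus 5 weeks). That of GRX480, chosen with this difference known, was 2.03. The genotype estimates of ROXY1 and ROXY2 were 0.10 ± 0.14 and -0.049 ± 0.10. Overexpressed GRX480 is known to suppress PDF1.2, a plant defensin gene driven by jasmonate and ethylene. PDF1.2 read 7.49, 8.25 and 9.01 in the mutant and 7.67, 10.76 and 8.05 in WT. Its difference of -2.51 at 6 weeks, with WT at its highest there, was the largest in size of any of the 16 genes at 1 age. In WT PDF1.2 was at its highest on the 6-week array, which stood furthest from the others. GRX480 was at its highest there too, but only 0.08 above its 7-week WT value, below its residual SD of 0.64. In the mutant both were at their highest at 7 weeks. Any relation between GRX480 and PDF1.2 was not tested.

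SAG29, a sugar transporter gene named, like SAG101, for senescence, read 3.04, 3.08 and 3.17 in the mutant and 3.01, 3.71 and 3.15 in WT. Its genotype estimate was -0.19 ± 0.17 (SE), its age estimate was 0.14 ± 0.21, and its one departure was the 6-week WT array.

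**Figure D2:**
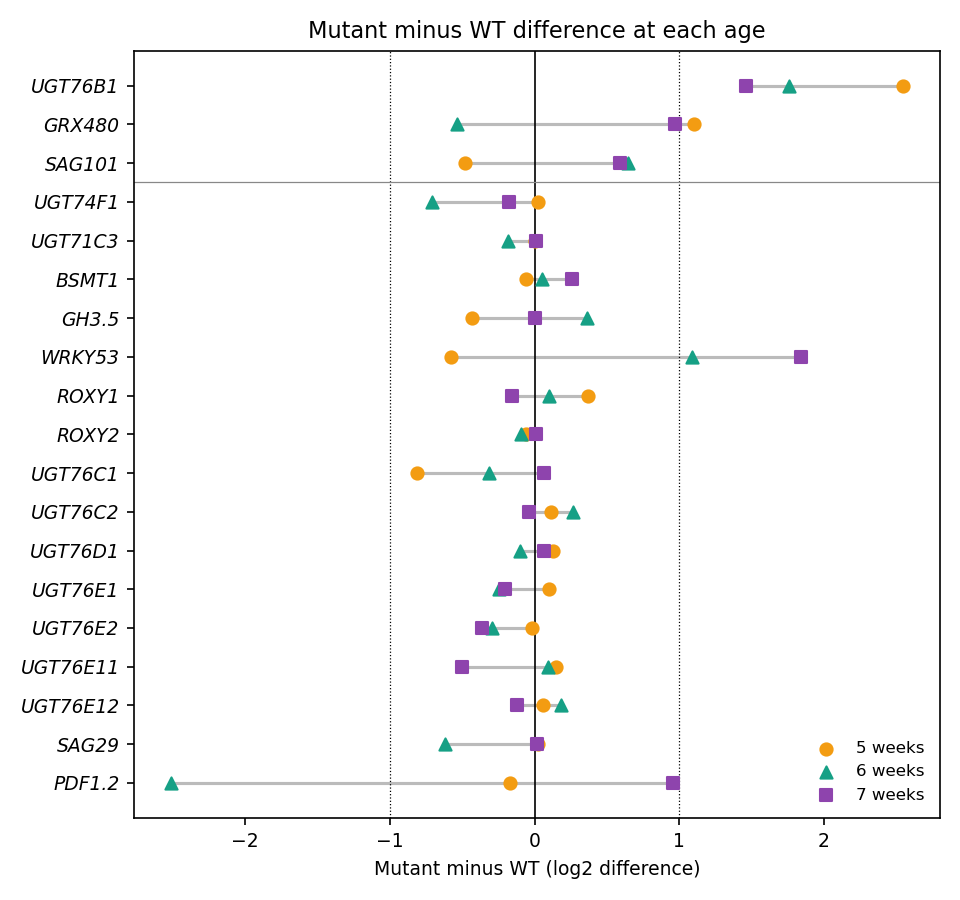
Mutant minus WT log2 difference (horizontal axis) at 5, 6 and 7 weeks for UGT76B1, GRX480 and SAG101 (top) and 16 other listed genes (below). Each point has 1 array per side, a grey line covers the range, and dotted lines lie at -1 and 1. UGT76B1 has all of its points beyond 1, from 1.46 to 2.55.

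**Figure D3:**
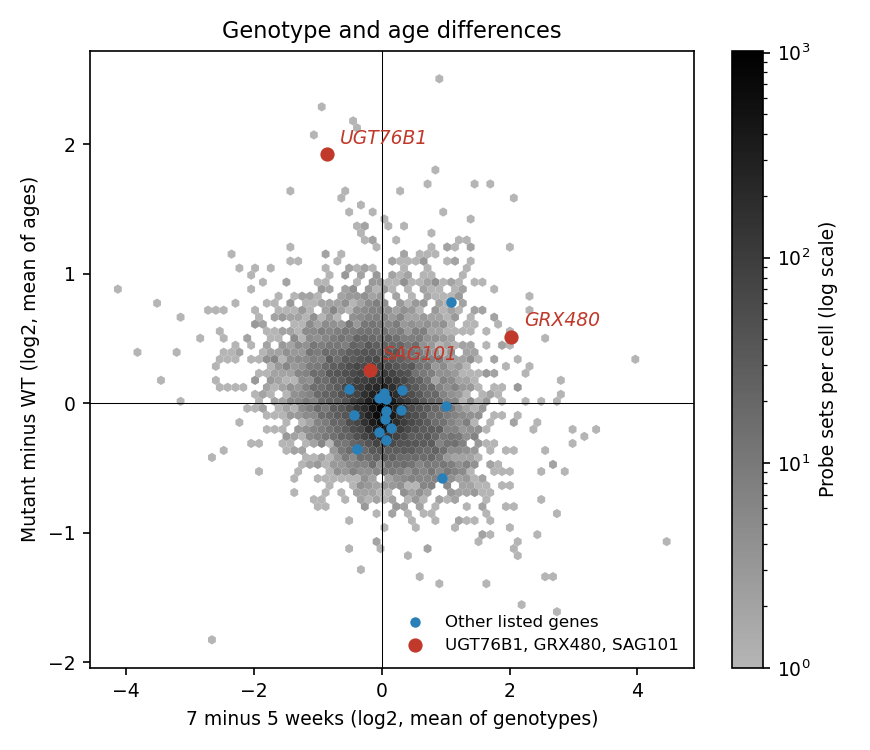
Estimated mutant minus WT difference (vertical axis, log2, mean of 3 ages) against the 7 minus 5 week difference (horizontal axis, log2, mean of both genotypes), with the 22746 probe sets as grey cells (darker where more lie, log scale), the 16 other listed genes in blue and UGT76B1, GRX480 and SAG101 in red. UGT76B1 lies at 1.92 on the genotype axis and GRX480 at 2.03 on the age axis, while SAG101 lies within the dense part, at 0.25 and -0.19.

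The genes whose pattern was most like each of the 3 were found by Pearson's correlation over the 6 arrays, among the 13512 other probe sets with 1 gene. With 6 arrays and so many probe sets, high correlations are to be had for most patterns, and they are given as a description. Next to UGT76B1 came AT2G29500 (r = 0.995), AT1G68440 (0.979), AT1G43910 (0.976), AT3G18940 (0.976) and AT5G45840 (0.968), and 11 probe sets were above 0.95. AT1G43910 had the widest range of these, reading 7.49, 7.72 and 5.85 in the mutant and 5.06, 5.32 and 4.45 in WT. Its genotype estimate of 2.08 was near the 1.92 of UGT76B1, and that of AT3G18940, whose values spanned 0.38, was 0.24.

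Next to GRX480 came AT4G14368 (r = 0.984), AT2G38550 (0.982), AT2G41600 (0.982), AT4G16360 (0.982) and AT3G26590 (0.977), and 32 probe sets were above 0.95. AT3G26590 spanned 1.83, reading 5.33, 5.77 and 6.76 in the mutant and 4.93, 5.92 and 5.95 in WT. AT4G14368 spanned only 0.16, against 3.06 for GRX480. Next to SAG101 came AT2G44000 (r = 0.985), AT3G59850 (0.984), AT2G46100 (0.964), AT4G01650 (0.956) and AT1G47680 (0.955), and 10 probe sets were above 0.95. The values of these 5 spanned between 0.30 and 0.49, against 1.27 for SAG101, so the likeness is one of shape and not of size. No gene was among the 5 nearest of more than 1 of the 3.

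**Figure D4:**
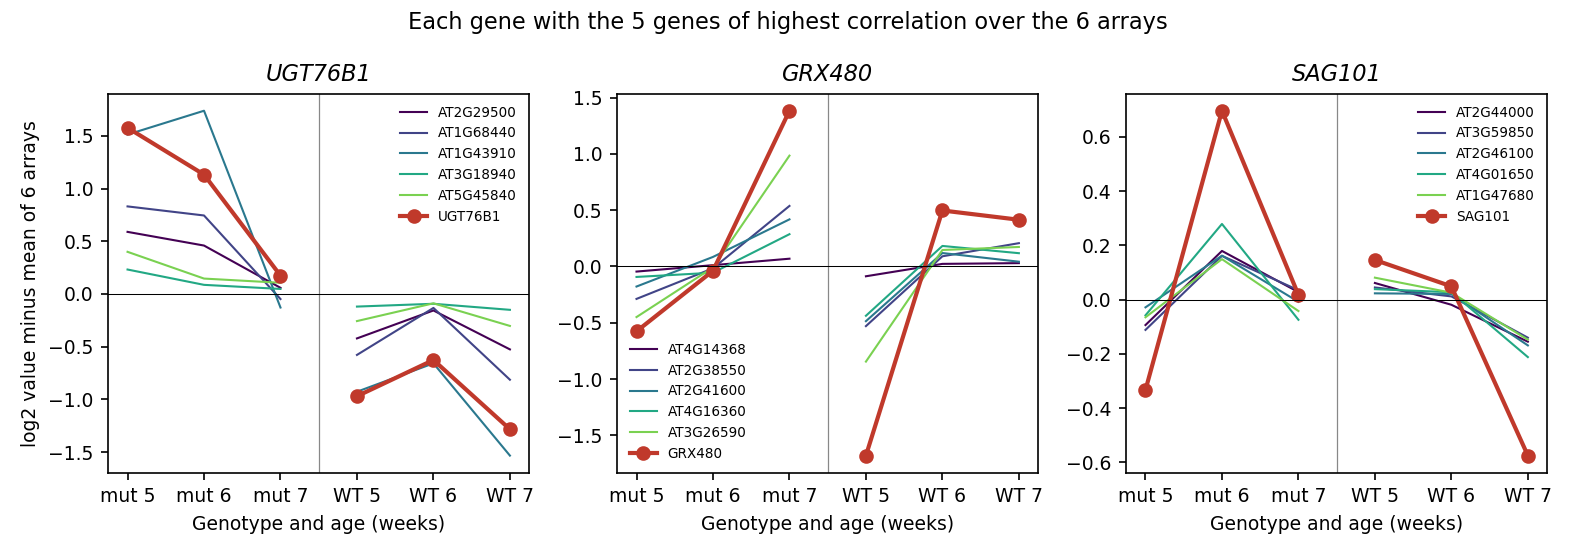
Log2 value minus the mean of the 6 arrays (vertical axis) for UGT76B1, GRX480 and SAG101 (red, with circles) and for the 5 genes of highest correlation with each (thin lines), by genotype and age in weeks, mutant arrays left of the grey line and WT arrays right of it. Each panel has its own scale; the thin lines follow the shape of the red one, at a smaller range for the 5 genes of GRX480 and of SAG101 and for 4 of the 5 of UGT76B1.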

How the data were processed

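Gene expression was measured on 6 one-colour Affymetrix arrays of mature rosette leaves, 3 of the mlo2 mlo6 mlo12 triple mutant and 3 of WT, 1 for each age. The authors deposited log2 values made with RMA, per the submitters' processing notes. Its version is not given in the sources used here. That the scale is log2 follows from the range of the values, 1.72 to 13.4. Scanner intensities were not used here. Of 22810 probe sets, 64 controls were set aside. The platform annotation gave 13513 of the other 22746 to 1 gene and 503 to several; names came from a RefSeq table of TAIR10.1, and list entries not named there were left out.

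Linear models were fitted to all 22746 probe sets with limma 3.58.1 in R 4.3.3: genotype plus age as a factor for the genotype and age (7 minus 5 weeks) estimates, and genotype by age as a number for the interaction, each with 2 residual degrees of freedom. Adjusted p-values are Benjamini-Hochberg values over all probe sets, with a threshold of 0.05. SEs are limma's moderated ones, which borrow the spread of other probe sets, while residual SDs are those of the gene alone. The scripts were tested on simulated data. Shares of variation are sums of squares of genotype, age and the remainder, not divided by their degrees of freedom. Age, with more levels than genotype, and the remainder therefore take larger shares even where nothing differs. No filter on low values was used. Nothing says that the arrays came from separate cultures, so p-values cover the spread between these arrays, with any shift of the genotype effect between ages in it. With 6 arrays the precision is low. The 3 genes, the gene lists and the tests were chosen with earlier results of these data known. The genes named besides them were all genes of those lists with a name in the RefSeq table and a probe set of their own. For each of the 3, the 5 genes of highest correlation were named too. Tried as alternatives were other normalizations between arrays, limma-trend, leaving out dim probe sets (mean under the median), other age terms and leaving out arrays. Other age terms for counts of probe sets, and array and normalization settings for the listed genes, were added after seeing the data.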

Additional observations from a re-analysis of the deposited data

Results flagged for a closer look

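For 2 of the 3 genes the mutant minus WT difference pointed in opposite directions at different ages, with 1 array per side. In GRX480 it came to 1.1, -0.54 and 0.97 at the successive ages, so that it shifted by -1.64 and then by 1.5 (log2). In SAG101 it came to -0.48, 0.65 and 0.59, a shift of 1.13 from 5 to 6 weeks and of 1.07 from 5 to 7 weeks. The 7 minus 5 week difference of SAG101 was 0.35 in the mutant and -0.72 in WT, which is the same shift of 1.07. These differences between ages and genotypes were not tested. Groups of 3 arrays were too small for a search for single outlying arrays.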

How the results depend on the processing

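The mutant minus WT estimate of UGT76B1 stayed between 1.61 and 2.15 under all alternatives run, and those of GRX480 (0.22 to 1.04) and SAG101 (0.057 to 0.62) kept their sign. Normalizing the arrays again moved no value of the 3 genes by as much as its residual SD. Leaving out 1 array at a time gave age estimates of -1.33 to -0.39 for UGT76B1 (without the 5-week WT and the 5-week mutant array) and of -0.73 to 0.36 for SAG101 (without the 5-week mutant and the 5-week WT array). The interaction ran from -2.09 to -0.089 for UGT76B1 and from -2.39 to 2.12 for GRX480, in both without the 7-week and the 5-week WT array. For SAG101 it ran from -0.64 to 2.78, without the 5-week and the 7-week mutant array. The direction of the interaction for GRX480 and SAG101 thus rests on single arrays. So does that of age for SAG101, which was above 0 without either the 5-week or the 7-week WT array. Of 108 values under alternatives 92 moved by less than the residual SD, but part of these could not move, so the count overstates stability. In this balanced design other age terms leave the estimates unchanged. Leaving out 6-week arrays likewise leaves the age and interaction estimates unchanged. For genotype, leaving out either array of an age gives the same estimate. For age, 258 of 22746 probe sets passed with limma-trend and 249 of 11373 with dim probe sets left out. Without both or either of the 6-week arrays 1755 of 22746 passed for age (0 to 1755 over all arrays left out). For genotype 1 passed with limma-trend. Without both or either 6-week array GH3.5 (WES1) passed for age, 1 of the 16 other genes (0 or 1 over all arrays left out). This stands beside the 1755 of 22746 probe sets that passed in those fits. These fits have 1 residual degree of freedom. An interaction without both 6-week arrays leaves no residual degree of freedom and was not run.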
